A study of Mus musculus with 24 samples.

Results

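The 81 genes described here are nuclear genes for subunits of the 5 oxidative phosphorylation complexes, with the associated genes Cox7a2l and Atp5s. Subunit genes under symbols outside the rule below are not among them, so no complex is taken to be complete. They were taken by symbol (Nduf a, b, c, s and v, Sdha to Sdhd, Uqcr, Cox4 to Cox8 and Atp5, without pseudogenes and predicted genes) with a mean of at least 1 CPM (gene counts scaled to a common library size, in counts per M) over all 24 libraries. They are 81 of 37621 features counted. Of 88 symbols that matched, 7 were under 1 CPM and were left out: Ndufa11b, Ndufb4c, Ndufs6b, Cox6c2, Cox7b2, Cox8b and Cox8c, the last with 0 counts in these libraries.

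Poly(A)-selected RNA was sequenced from 4 brain regions of C57BL/6 mice (olfactory bulb, cortex, hippocampus and cerebellum), either wild type or knockout for Cdr1as, the locus of a circular RNA. There were 3 libraries in each of 8 groups. The labels give no age or sex and do not say that the 3 libraries of a group are separate animals, so p-values measure the spread between these libraries. Whether libraries with the same number come from the same animal is not stated either.

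The respiratory chain of the inner mitochondrial membrane passes electrons from NADH (complex I) and succinate (complex II) through complex III to oxygen at complex IV, and complexes I, III and IV pump protons. ATP synthase (complex V) uses the proton gradient to make ATP, on which firing neurons depend heavily. Most subunits are encoded in the nucleus and the others in mitochondrial DNA, and several complex IV subunits have alternative forms known for their expression in heart and skeletal muscle, lung or testis.

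By complex, 35 members belonged to complex I, 4 to complex II, 8 to complex III, 16 to complex IV and 16 to complex V. Ndufa4 and Ndufa4l2 were counted with complex IV, in which Ndufa4 is known as a subunit. Cox7a2l, known for its part in joining complexes III and IV, and Atp5s, a coupling factor of ATP synthase, were kept apart. The 13 subunit genes of mitochondrial DNA were listed at 0 counts in every library, so the subunits made in the mitochondrion are not analysed here.

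Gene counts per library ran from 21.1 M to 40.5 M, and the members took 0.892% to 1.12% of them. Marker sums set the cerebellum and the bulb apart from the other regions. Excitatory neuron sums of cortex and hippocampus overlapped (5267 to 6857 CPM and 5793 to 8028 CPM). Their inhibitory neuron sums did not (1094 to 1341 CPM and 741 to 866 CPM). Summed cerebellar neuron markers were at 5254 to 5870 CPM in the cerebellum and 187 to 293 CPM elsewhere, and inhibitory neuron markers were at 3095 to 3400 CPM in the olfactory bulb and 741 to 1590 CPM elsewhere. The feature for the deleted locus, Cdr1asG, averaged 17.8, 6.52, 7.88 and 6.82 CPM in wild-type cerebellum, cortex, hippocampus and olfactory bulb, and 0.607, 0.325, 0.889 and 0.333 CPM in the knockout. Choroid plexus markers exceeded 1000 CPM in wild-type cerebellum 1 and 2, knockout cerebellum 2, and wild-type hippocampus 1 and 3. Wild-type cortex 2 had the lowest summed member level of its group.

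Which subunit genes were abundant? Levels between genes are compared as CPM per kilobase of transcript, as the mean of the 12 wild-type libraries. The ATP synthase beta subunit gene Atp5b, which carries the catalytic sites, was highest at 641 CPM per kb, followed among the genes named here by Cox4i1, the common form of subunit IV of complex IV, at 442 CPM per kb. The highest members of the other complexes were Uqcrh, the hinge protein of complex III, at 251 CPM per kb, Sdha, the flavoprotein of succinate dehydrogenase, at 156 CPM per kb, and the accessory subunit Ndufb9 at 154 CPM per kb. Median levels per kb were 73.0 CPM for complex I, 88.6 for complex II, 134 for complex III, 183 for complex IV and 163 for complex V.

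The lowest members depended on the transcript length that was used. With the longest principal transcript of each gene, the lowest were Ndufb2 in complex I (6.69 CPM per kb, on a transcript of 4371 nt), Sdhc in complex II (26.3), Uqcrq in complex III (42.0), Cox4i2 in complex IV (1.88) and Atp5l in complex V (7.18). The best supported principal transcripts were tried as well, after these values were seen. Ndufb2 then rose to 64.2 CPM per kb on 455 nt and Uqcrq to 158 CPM per kb, and Ndufb4 (7.67) and Uqcrfs1 (78.7) became the lowest of complexes I and III. Sdhc, Cox4i2 and Atp5l remained lowest under both lengths.

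Atp5l has 9 near-identical copies in the transcript annotation, so reads of Atp5l could have been counted elsewhere or dropped as not unique. Its level is therefore uncertain.

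**Figure D1:**
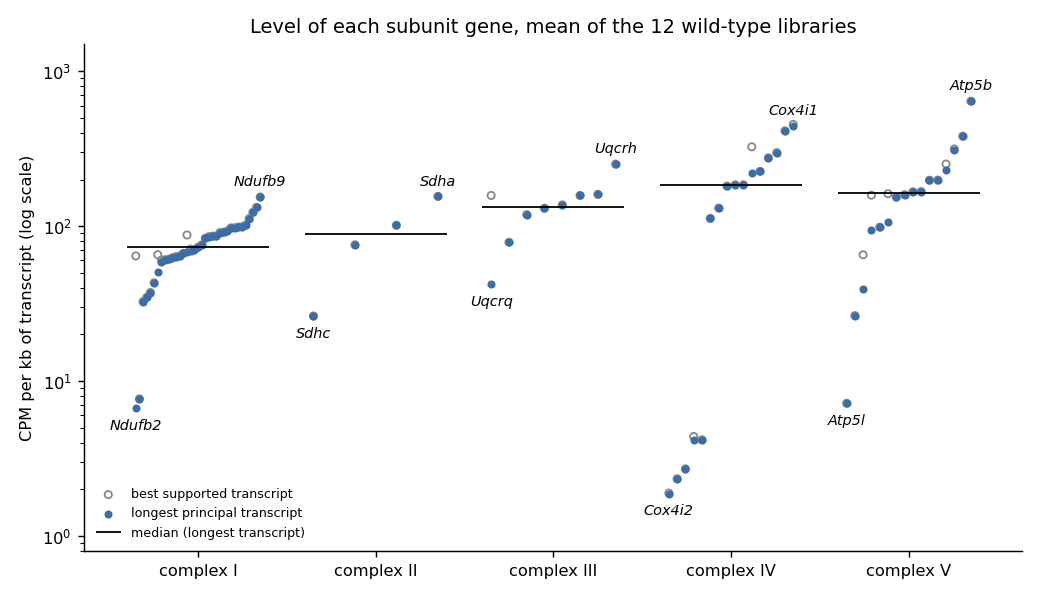
Each point is 1 subunit gene, placed by its mean over the 12 wild-type libraries in CPM per kb of transcript on a log axis, grouped by complex, with filled points for the longest principal transcript, open points for the best supported one and a line at the median of the filled points. Atp5b is highest at 641 CPM per kb, 5 genes of complex IV lie under 5 CPM per kb, and Ndufb2 and Uqcrq move with the choice of transcript.

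The alternative forms of complex IV subunits were far below their common partners. Per kb, Cox4i2, known from lung, was at 1.88 CPM against 442 CPM for Cox4i1. The muscle form Cox6a2 was at 2.71 CPM per kb against 276 for Cox6a1, and the testis form Cox6b2 at 4.15 against 226 for Cox6b1. The muscle form Cox7a1 was at 4.17 CPM per kb against 181 for Cox7a2, and Cox8b, which missed the minimum, at 0.763 against 412 for Cox8a. Ndufa4l2, a form known for its induction by hypoxia, was at 2.34 CPM per kb against 298 for Ndufa4. Ndufa4l2 overlaps exons of Shmt2 on the opposite strand, so its reads may include those of Shmt2.

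The 3 genes for the identical mature c subunit of ATP synthase differed as well. Atp5g3 was at 311 CPM per kb and Atp5g2 at 39.4, or 65.3 with its best supported transcript. Atp5g2 has 2 near-identical copies in the transcript annotation, so its level is uncertain in the way given for Atp5l. Atp5g1 was at 26.1 CPM per kb on a transcript of 4715 nt, while its CPM, not divided by length, was 123, between 28.8 for Atp5g2 and 225 for Atp5g3.

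Promoter sequences are shown for 4 members whose windows hold a motif of a factor known to act on respiratory genes, and for 2 low forms of complex IV that varied between regions. Windows of 300 bases, 250 before to 50 after the annotated start, come from RefSeq on GRCm38.p6, where 69 windows matched 64 of the member genes. They are Cox6a1 (chr5:115348909-115349208, minus strand), Uqcrc1 (chr9:108936398-108936697, plus), Sdhd (chr9:50603800-50604099, minus), Ndufs7 (chr10:80249199-80249498, plus), Cox6b2 (chr7:4753045-4753344, minus) and Cox7a1 (chr7:30183921-30184220, plus). Capitals mark matches, on either strand, to the motifs of NRF1 (the palindrome in capitals in both Cox6a1 and Uqcrc1), estrogen-related receptors (TCAAGGTCA), YY1 (AAGATGGCG) and ETS factors (CCGGAAG):
Cox6a1: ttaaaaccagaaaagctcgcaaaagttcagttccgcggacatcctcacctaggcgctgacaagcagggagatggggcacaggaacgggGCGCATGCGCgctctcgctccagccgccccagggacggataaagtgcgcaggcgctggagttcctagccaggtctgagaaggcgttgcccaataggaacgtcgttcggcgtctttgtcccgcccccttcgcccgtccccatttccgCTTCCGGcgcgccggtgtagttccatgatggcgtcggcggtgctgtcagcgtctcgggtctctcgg
Uqcrc1: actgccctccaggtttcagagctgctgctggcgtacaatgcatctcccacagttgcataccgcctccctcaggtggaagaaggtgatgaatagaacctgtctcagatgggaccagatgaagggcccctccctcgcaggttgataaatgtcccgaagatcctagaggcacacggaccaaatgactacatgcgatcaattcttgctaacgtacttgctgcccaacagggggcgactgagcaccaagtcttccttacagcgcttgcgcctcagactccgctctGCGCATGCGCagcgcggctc
Sdhd: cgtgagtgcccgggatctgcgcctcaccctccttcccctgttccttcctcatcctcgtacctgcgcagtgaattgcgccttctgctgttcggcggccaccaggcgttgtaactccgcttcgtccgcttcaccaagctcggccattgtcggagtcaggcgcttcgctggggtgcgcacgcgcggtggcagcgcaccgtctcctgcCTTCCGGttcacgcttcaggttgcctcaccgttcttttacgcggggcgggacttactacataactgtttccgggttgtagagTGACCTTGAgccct
Ndufs7: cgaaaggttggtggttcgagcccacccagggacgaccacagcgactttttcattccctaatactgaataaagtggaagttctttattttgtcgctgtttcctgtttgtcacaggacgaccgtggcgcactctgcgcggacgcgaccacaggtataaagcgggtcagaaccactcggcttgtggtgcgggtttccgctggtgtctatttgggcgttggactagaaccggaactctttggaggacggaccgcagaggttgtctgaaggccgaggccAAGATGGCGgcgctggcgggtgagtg
Cox6b2: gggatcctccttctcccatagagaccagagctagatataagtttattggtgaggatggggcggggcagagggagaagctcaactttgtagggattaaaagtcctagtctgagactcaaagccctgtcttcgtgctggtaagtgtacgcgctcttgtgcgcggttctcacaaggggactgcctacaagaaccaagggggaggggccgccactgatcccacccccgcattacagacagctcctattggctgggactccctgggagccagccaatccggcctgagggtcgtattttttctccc
Cox7a1: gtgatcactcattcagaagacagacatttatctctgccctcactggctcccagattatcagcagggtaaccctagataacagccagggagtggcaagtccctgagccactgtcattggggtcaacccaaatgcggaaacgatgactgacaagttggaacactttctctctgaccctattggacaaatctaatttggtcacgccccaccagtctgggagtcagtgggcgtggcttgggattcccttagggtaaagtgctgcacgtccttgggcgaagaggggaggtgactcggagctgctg

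In Cox6a1 the NRF1 motif begins 162 bases before the start and the ETS motif 16 bases before it. The NRF1 motif of Uqcrc1 begins at base 31 after the start, the estrogen-related receptor motif of Sdhd at base 37 and the YY1 motif of Ndufs7 at base 25. Cox6b2 and Cox7a1 hold none of these 4 motifs in the window. The same is true of many other members, Atp5b, Sdha and Uqcr10 among them, so this lack is not particular to Cox6b2 and Cox7a1. No motifs overlap in the windows shown. Over all windows of this length, NRF1 letters were in 5 of 69 member windows (7.25%) and in 0.971% of all 32851, YY1 letters in 7 (10.1%) and 1.4%, and estrogen-related receptor letters in 2 (2.90%) and 0.423%. ETS letters were in 16 member windows (23.2%) and in 8.86% of all. The GC box GGGCGG was in 37.7% of member windows and 35.7% of all, and TATAAA in 8.70% and 13.6%.

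How did subunit levels vary between regions? Most members varied little. The ratio of the highest to the lowest wild-type region mean had a median of 1.21 over the 81 members and 1.68 over 14406 genes of at least 1 CPM. A ratio of 1.5 or more was reached by 7 members (8.64%) and by 61.0% of those genes. The 7 were Cox6a2, Cox6b2, Cox7a1, Cox4i2, Ndufb2, Cox6a1 and Atp5l, of which 5 belong to complex IV.

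Cox6a2, the muscle form of subunit VIa, followed the order cortex, hippocampus, olfactory bulb, cerebellum. Wild-type libraries 1 to 3 had 4.53, 3.35 and 4.27 CPM in the cortex, 2.15, 2.31 and 2.56 in the hippocampus, 0.966, 0.964 and 0.772 in the bulb and 0.254, 0 and 0 in the cerebellum. Knockout libraries had 5.11, 3.0 and 4.6 CPM in the cortex, 1.83, 2.5 and 1.99 in the hippocampus, 1.13, 0.757 and 1.02 in the bulb and 0.176, 0.109 and 0.0294 in the cerebellum. No 2 regions overlapped within a genotype. The gene overlaps exons of Itgad on the opposite strand, and the strand setting of the counting is not given, so its reads may include those of Itgad.

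In reads, wild-type cerebellum held 7 for Cox6a2, all in library 1, and wild-type cortex 327. The pooled rate in the cortex was 51.1 times that of the cerebellum, with a 95% exact interval of 24.5 to 128.2 that covers counting error only. In the knockout the ratio was 37.7 (20.8 to 76.2), with 385 reads against 11. Cox6a2 was lower in the cerebellum than in the cortex (edgeR quasi-likelihood test, adjusted p = 1.72e-05 in wild type and 3.21e-07 in knockout). Cortex and hippocampus differed for Cox6a2 in the knockout (log2 0.99, SE 0.29, edgeR adjusted p = 0.0284) but did not pass in wild type (log2 0.79, SE 0.44, adjusted p = 0.305). The test of whether the knockout effect on Cox6a2 differed between regions did not pass (edgeR adjusted p = 1).

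Its partner Cox6a1 varied less and in another order. Wild-type libraries had 196, 156 and 222 CPM in the cortex, 176, 165 and 168 in the hippocampus, 134, 152 and 165 in the cerebellum and 109.5, 120.2 and 128 in the bulb. The bulb lay under every other region. Cox6a1 was higher in cortex than in bulb by 0.68 on the log2 scale (SE 0.13, edgeR adjusted p = 0.00104) and by 0.60 in the knockout (SE 0.11, adjusted p = 0.000978).

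Cox6b2, Cox7a1 and Cox4i2 were highest in the cerebellum. Cox6b2, the testis form of subunit VIb, had 4.94, 5.49 and 3.88 CPM in wild-type cerebellum, 1.12, 1.1 and 0.830 in cortex, 1.71, 0.745 and 3.10 in hippocampus and 1.64, 2.16 and 2.36 in bulb. Cox7a1, the muscle form of subunit VIIa, had 2.61, 3.79 and 2.98 CPM in wild-type cerebellum and 0.707 to 1.43 in the 9 other wild-type libraries. Cerebellum did not overlap another region for either gene.

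Against the cortex, wild-type cerebellum was higher by 2.22 for Cox6b2 (SE 0.40, edgeR adjusted p = 0.000595) and by 1.47 for Cox7a1 (SE 0.26, adjusted p = 0.00059) on the log2 scale. Knockout libraries gave 1.89 for Cox6b2 and 1.89 for Cox7a1. The hippocampal Cox6b2 values moved with choroid plexus markers, which were at 2489, 39.1 and 3278 CPM in wild-type hippocampus 1, 2 and 3 and at 35.1 to 47.1 CPM in the knockout, where Cox6b2 was at 0.906 to 1.61 CPM. Their part in the difference was not tested. In wild-type cerebellum 3, with choroid plexus markers at 31.1 CPM, Cox6b2 was at 3.88 CPM, above every library of the other regions.

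Cox4i2, a form known for its response to low oxygen, had 1.96, 2.07 and 2.15 CPM in wild-type cerebellum, 1.22, 1.03 and 1.75 in cortex, 1.21, 1.04 and 1.17 in hippocampus and 1.01, 0.864 and 1.03 in bulb. It was higher in the cerebellum than in the bulb by 1.09 on the log2 scale (SE 0.23, edgeR adjusted p = 0.00201). Its difference from the cortex, 0.62 (SE 0.22, adjusted p = 0.0354), lost the call under 12 of 20 alternatives. In bulk tissue, fewer cells of a type and less RNA per cell cannot be told apart.

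**Figure D2:**
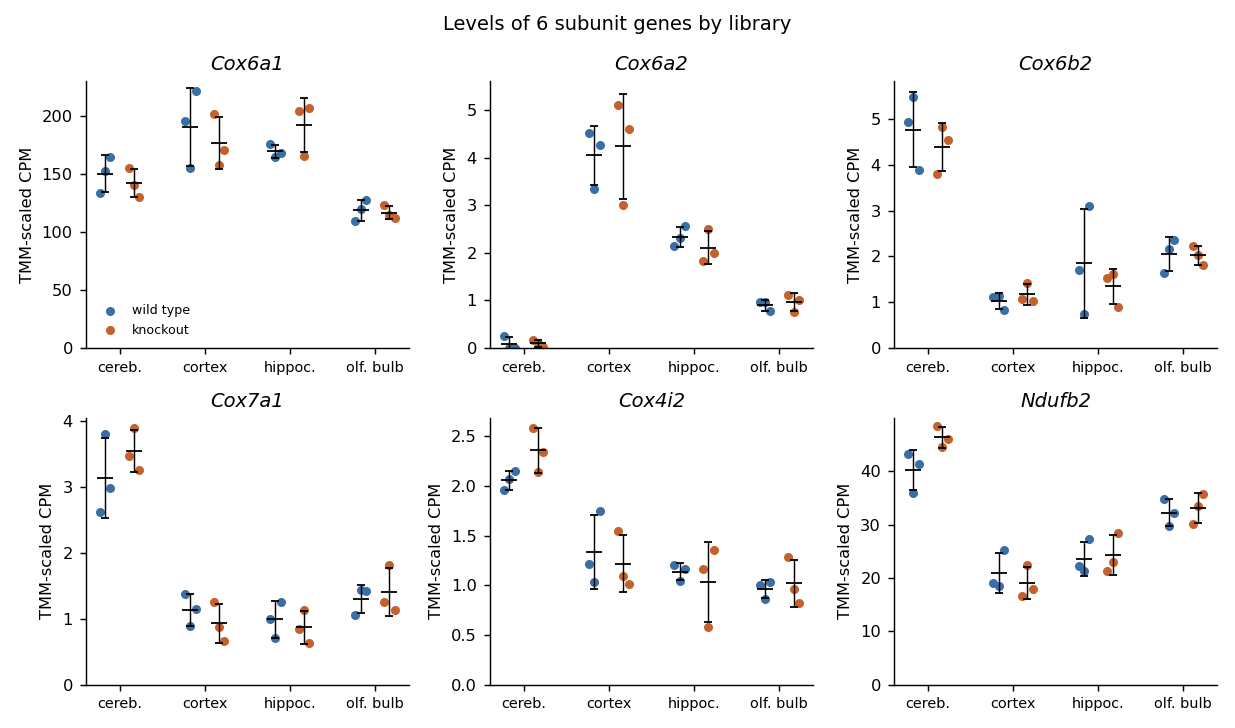
TMM-scaled CPM of Cox6a1, Cox6a2, Cox6b2, Cox7a1, Cox4i2 and Ndufb2 in each of the 24 libraries, by region, with wild type in blue, knockout in orange and bars for the mean ± SD of 3 libraries. Cox6a2 is at 0 to 0.254 CPM in the cerebellum and 3.0 to 5.11 CPM in the cortex, while Cox6b2, Cox7a1, Cox4i2 and Ndufb2 are highest in the cerebellum.

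Ndufb2, an accessory subunit of the membrane arm of complex I, was the one member of that complex past a ratio of 1.5. Wild-type libraries had 43.2, 36.0 and 41.4 CPM in the cerebellum, 34.8, 29.8 and 32.1 in the bulb, 22.2, 21.3 and 27.3 in the hippocampus and 19.1, 18.4 and 25.3 in the cortex. Cortex and hippocampus overlapped, and the other regions did not. Cerebellum was above cortex by 0.94 on the log2 scale (SE 0.14, edgeR adjusted p = 0.000144), and by 1.27 in the knockout. The gene overlaps exons of Braf on the opposite strand and of a predicted gene on the same strand, and the strand setting of the counting is not given in the sources used here, so its reads may include theirs.

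In the wild-type comparison of cerebellum with cortex, 10 members were higher and 9 lower in the cerebellum (23.5% of 81), where 53.7% of all genes tested were called, 26.5% higher and 27.3% lower. Among those higher in the cerebellum were also Atp5l (0.57), Ndufs1, Ndufs7, Ndufa6 and Atp5b. The Atp5l call was lost under 7 of 20 alternatives, and in the knockout its difference of 0.25 did not pass (edgeR adjusted p = 0.316). Lower were Cox7a2l (-0.43, SE 0.11, edgeR adjusted p = 0.00487), Ndufa8 (-0.40), Ndufb9 (-0.37), Sdhb, the iron-sulfur subunit of complex II (-0.31), Cox6a1, Uqcr11, Ndufb6 and Atp5d. The median over members was 0.01 and over all genes 0.02. Knockout libraries gave 27 calls (33.3%) against 59.7% of all genes, and 18 members were called in both genotypes with the same sign, 94.7% of the wild-type calls and 66.7% of the knockout calls. That was the highest share of the region pairs with wild-type calls. Cerebellum with hippocampus gave 17 (77.3% and 65.4%), cerebellum with bulb 11 (73.3% and 55.0%), cortex with bulb 12 (80% and 63.2%) and hippocampus with bulb 8 (88.9% and 53.3%), with 0 of opposite sign in any pair. The same overlap was not computed over all genes, so these shares say nothing particular to the members. The wild-type count was 11 without cerebellum 2, 11 without cerebellum 3 and 12 without cortex 1.

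Against the hippocampus, wild-type cerebellum had 17 members higher and 5 lower (27.2%), where 49% of all genes were called, 24.3% higher and 24.7% lower. Beside the forms above and Ndufb2 (0.77), the higher members included Sdhc and Sdhd, the membrane anchors of complex II, Uqcrh, Ndufa4, Atp5b, Atp5h and Atp5j. The lower ones were Cox6a2, Cox7a2l (-0.39), Ndufb9 (-0.30), Ndufa8 (-0.28) and Ndufa10 (-0.24). The calls of Ndufa8, Ndufa10 and Ndufb9 were lost under 12, 13 and 6 of 20 alternatives. Atp5h has 3 near-identical copies in the transcript annotation, and Atp5j overlaps exons of Gabpa on the opposite strand. Other named members, such as Ndufs1, Ndufb8 and Ndufb9, overlap exons of other genes too. The limits given for Atp5l and Ndufb2 apply to such members as well. In the knockout 26 members were called, against 57.4% of all genes. The wild-type count was 8 without hippocampus 1, 13 without hippocampus 2 or 3, and 14 without cerebellum 2 or 3.

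Against the bulb, wild-type cerebellum had 13 members higher and 2 lower (18.5%), where 46.4% of all genes were called, 22.7% higher and 23.7% lower. Ndufb8 (0.46, SE 0.13, edgeR adjusted p = 0.0117) and Ndufs7, the subunit with the last iron-sulfur cluster of complex I (0.38, SE 0.094, adjusted p = 0.00564), were higher, and Sdhb was lower (-0.28), a call lost under 4 of 20 alternatives. In the knockout 20 members were called, against 52.4% of all genes. The wild-type count was 8 without cerebellum 2, and the knockout count was 13 without cerebellum 2 and 12 without bulb 1 or 3. Choroid plexus markers stood above 1000 CPM in 2 of 3 wild-type cerebellum and 2 of 3 wild-type hippocampus libraries. Without such libraries, 1 wild-type library each of cerebellum and hippocampus was left, so calls are not given. The median member log2 of wild-type cerebellum was then 0.007 against cortex, 0.041 against hippocampus and 0.154 against bulb. With all libraries it was 0.008, 0.110 and 0.145.

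Few members passed the test between cortex and hippocampus. In wild type 0 members were called by edgeR, where 13.5% of all genes were, with 2 members at an unadjusted p under 0.05 (25.1% of all genes). DESeq2 called 1 member and 2713 of all genes. Cortex was nominally above hippocampus for 74 of 81 members in wild type, with a median log2 of 0.10, and for 45 of 81 in the knockout, with a median of 0.02. Without the libraries rich in choroid plexus markers, which include wild-type hippocampus 1 and 3, 33 of 81 members were lower in wild-type cortex and the median was 0.04. Wild-type cortex 2 was low. Its member sum was 9061 CPM against 10989 and 11065 CPM in wild-type cortex 1 and 3, and its summed cytosolic ribosomal protein genes were low too (10137 against 12167 and 12472 CPM). Without it 11 members were called and the wild-type median was 0.19. Knockout libraries gave 1 call, Cox6a2, against 21% of all genes. That count was 0 without knockout cortex 1 or 3 or hippocampus 1, 2 without bulb 3 and 3 without cortex 2. In wild type it was 1 without cerebellum 1 or hippocampus 2.

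Against the bulb, wild-type cortex had 14 members higher and 1 lower (18.5%), where 44.3% of all genes were called, 22.7% higher and 21.6% lower. Uqcr11, a small subunit of complex III, had 84.0, 71.0 and 87.5 CPM in the cortex and 54.2, 60.1 and 59.0 in the bulb. It was higher in the cortex by 0.48 on the log2 scale (SE 0.095, edgeR adjusted p = 0.00153). Atp5s had 15.2, 16.1 and 18 CPM in the cortex and 12.6, 11.9 and 11.2 in the bulb, a difference of 0.47 (SE 0.11, adjusted p = 0.00377). Cox4i1, Cox6b1, Cox6c, Atp5g1 and Cox7a2l were also higher in the cortex, and Ndufb2 was lower (-0.62). The replicate block raised the count from 15 to 23, and that of all genes from 7405 to 8948. Leaving out wild-type cortex 2 raised the count of members to 33. It was 8 without cortex 1 or bulb 3, and 9 without cortex 3 or bulb 1.

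Hippocampus against bulb gave 7 members higher and 2 lower in wild type (11.1%), where 40.9% of all genes were called, 20.9% higher and 19.9% lower. Atp5s (0.48), Uqcr11 (0.41), Cox6a1 (0.51) and Ndufb9 (0.38) were higher in the hippocampus, and Ndufb2 (-0.45) and Atp5g2 (-0.38) lower, each lost under 5 of 20 alternatives. The replicate block gave 14 calls among members, and 8299 of all genes against 6840 in the main fit. The count of members was 17 without cortex 2, 4 without hippocampus 1, and 5 without hippocampus 2 or bulb 3. In the knockout 19 members were called between cortex and bulb, against 48.7% of all genes (12 without bulb 3), and 15 between hippocampus and bulb, against 46.7%.

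The direction of the comparisons of cortex and hippocampus with the bulb depended on scaling. TMM factors were used above. With library totals in their place, the median over all genes moved from -0.01 to -0.19 for wild-type cortex minus bulb and from -0.02 to -0.18 for hippocampus minus bulb, a shift of more than 0.1. The member medians moved with it, from 0.12 to -0.05 and from 0.01 to -0.14, and the calls turned from 14 higher and 1 lower to 4 and 8, and from 7 and 2 to 2 and 14. Of all genes, 7916 and 7367 were called with library totals, and 7405 and 6840 with TMM. The member medians lay above the median of all genes under both scalings. A change of scaling shifts all genes of a comparison nearly alike, so this could hardly have come out otherwise. For wild-type cerebellum minus bulb the direction stayed. The member median moved from 0.145 to 0.034 and the calls from 13 higher and 2 lower to 6 and 4. Of all genes, 7764 were called there with TMM and 7543 with library totals. For cerebellum minus cortex the split moved from 10 higher and 9 lower to 18 and 5, and the calls over all genes from 8990 to 9030.

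**Figure D3:**
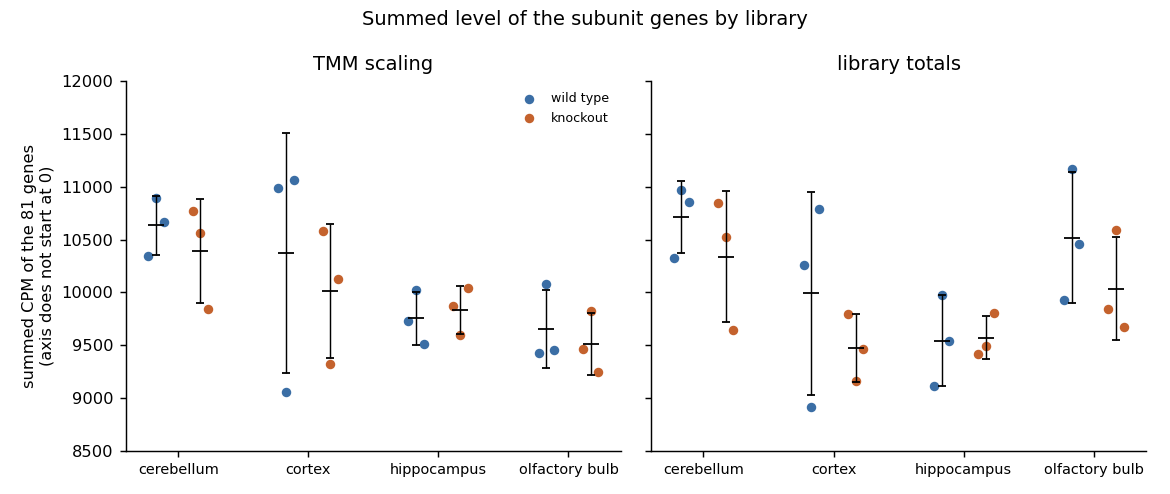
Summed CPM of the 81 members in each library, by region and genotype, with TMM scaling on the left and library totals on the right (the axis does not start at 0; bars are mean ± SD of 3 libraries). Wild-type olfactory bulb averages 9654 CPM with TMM and 10518 CPM with library totals, and wild-type cortex 2 is at 9061 and 8919 CPM, under its group's other libraries on both scales.

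Within a library, the shares of the complexes in the member sum do not depend on scaling. Complex I held 25.3% to 25.7% of it in the 4 wild-type regions, complex II 7.28% to 7.50% and complex III 9.51% to 9.75%. Complex IV held 18.8% ± 1.1 in cortex, 18.2% ± 0.50 in hippocampus, 16.9% ± 0.97 in cerebellum and 16.6% ± 0.54 in bulb (SD, n = 3). Complex V ran the other way, at 37.6% ± 0.71, 38.0% ± 0.35, 39.7% ± 0.46 and 40.1% ± 0.43. With complexes I to III nearly level, the shares of IV and V are tied and are not separate observations. From wild-type cortex to cerebellum the complex V sum rose from 3896 to 4223 CPM, mostly in Atp5b (1164 to 1398 CPM) and Atp5a1 (916 to 1000 CPM). Of its 16 genes, 9 were nominally higher and 7 lower in the cerebellum than in the cortex (median log2 0.05). For complex V, each wild-type cortex and hippocampus library (36.8% to 38.2%) was under each cerebellum and bulb library (39.3% to 40.4%). The 6 knockout libraries of cortex and hippocampus (36.6% to 38.5%) were likewise under the 6 of cerebellum and bulb (39.4% to 40.5%).

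**Figure D4:**
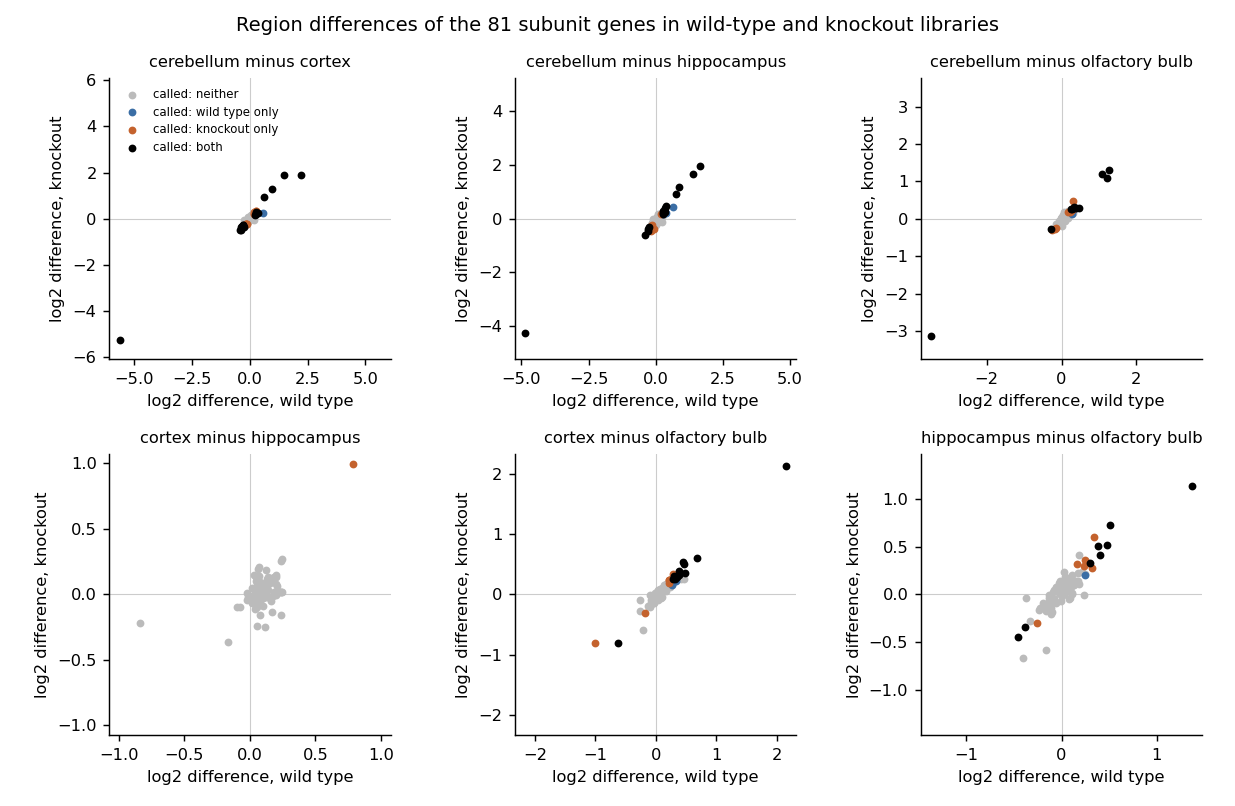
Each panel plots, for the 81 members, the log2 difference between 2 regions in wild-type libraries (horizontal) against the same difference in knockout libraries (vertical), which share no library, coloured by which test called the gene. Members called in both genotypes lie in the quadrants of equal sign, 18 of them for cerebellum minus cortex.

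Other genes of energy metabolism were taken from lists, to be read against the 26.5% of all genes called higher and the 27.3% called lower in wild-type cerebellum than in cortex. Of 19 regulators of mitochondrial biogenesis, 9 were higher and 0 lower in wild-type cerebellum than in cortex, among them the estrogen-related receptors Esrrb (log2 2.67) and Esrrg (1.63), the ETS-type factor subunit Gabpb1 (0.63) and Nrf1 (0.53). Of 45 assembly factors, 8 were higher and 12 lower, led by Cox20 (1.12) and Ttc19 (-1.02), which act on complexes IV and III. Of 17 glycolysis genes, 3 were higher and 8 lower, with the hexokinase Hk2 at 1.98 and the lactate dehydrogenase Ldha at -1.16. Of 96 cytosolic ribosomal protein genes tested, 4 were higher and 68 lower, with a median of -0.39 where the member median was 0.01.

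Members rose and fell together across libraries to different degrees. The correlation of a member's log2 CPM with the mean of the others over the 24 libraries ranged from -0.37 to 0.91, as a description over libraries that share regions and scaling. Atp5f1, a stalk subunit of ATP synthase, was highest, at 0.91, and Cox6a2 (-0.37), Ndufa4l2 (-0.26), Cox6b2 (-0.10) and Ndufb2 (-0.06) lowest. Of 14361 other genes, those most like the member mean were Lamtor5 (r = 0.91), BC031181 (0.87), Hint1 (0.86), the ADP/ATP carrier Slc25a4 (0.86) and Oaz1 (0.85).

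Did loss of Cdr1as change subunit levels? No member passed the edgeR test in any region. Counts were 0 of 80 in the cerebellum, where Cox6a2 missed the filter on low counts, and 0 of 81 in the cortex, hippocampus and bulb. Of all genes, 0%, 0.0379%, 0% and 0% were called in these regions. At an unadjusted p under 0.05, 0 members stood in each region, where 5.48%, 4.2%, 5.16% and 5.33% of all genes did. DESeq2 called 0 members, and 46, 102, 37 and 66 of all genes. With a replicate block 0 members were called, and 3, 110, 15 and 57 of all genes. The median standard error of a member was 0.081, 0.11, 0.088 and 0.069 on the log2 scale. Differences several times larger than these errors can miss the threshold with 3 libraries a group, so a change of modest size in a member is not excluded.

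Averaged over the regions, 0 members were called where 2.68% of all genes were, with 2 at an unadjusted p under 0.05 (14% of all genes). DESeq2 called 0 members and 790 of all genes, and the replicate block 0 members and 1256 of all genes. The test of whether the effect differed between regions called 0 members, where 0.0232% of all genes were, with 0 at an unadjusted p under 0.05 (2.54% of all genes) and 0 by DESeq2.

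The signs leaned one way outside the hippocampus. Knockout was nominally below wild type for 65 of 80 members in the cerebellum (median log2 -0.04), 68 of 81 in the cortex (-0.07) and 59 of 81 in the bulb (-0.03), but for 38 of 81 in the hippocampus (0.01). Of all genes tested, 50.6%, 51.9%, 50.5% and 50.5% were below in cerebellum, cortex, bulb and hippocampus, with medians within 0.01 of 0. All 8 complex III members were below in the cerebellum and the cortex, and 0 of these differences passed. Members share libraries and are no independent replicates, so these counts carry no test.

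Cytosolic ribosomal protein genes leaned the same way, with 76 of 95 below in the cerebellum, 74 of 95 in the cortex, 67 of 96 in the bulb and 30 of 95 in the hippocampus. Citric acid cycle genes were below for 16, 14, 17 and 15 of 18 in cerebellum, cortex, hippocampus and bulb, and 0 passed. Leaving out 1 cortex library at a time moved the cortex median between -0.15 and -0.00062, the first without wild-type 2 and the second without wild-type 3. In the hippocampus the median was 0.06 without the libraries numbered 2 and -0.03 without those rich in choroid plexus markers. The latter left wild-type hippocampus 2 as the only wild-type library.

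Below are, by region, the members of smallest p, of which 0 passed. In the cerebellum Ndufb2 was at 48.4, 44.5 and 46.0 CPM in the knockout and 43.2, 36.0 and 41.4 CPM in wild type (log2 0.20, SE 0.095, edgeR adjusted p = 0.931). Cox5b, a subunit of complex IV, was at -0.15, Atp5d at -0.15, Uqcrc1, a core protein of complex III, at -0.13 and Ndufc1 at -0.10. In the cortex Atp5l was at 3.66, 6.18 and 3.51 CPM in the knockout and 3.10, 2.92 and 4.06 CPM in wild type (log2 0.39, SE 0.26, adjusted p = 1), with knockout 2 alone above the wild-type range. Without the libraries numbered 2 its difference was -0.02.

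Also in the cortex, Ndufs4 was at -0.18, Ndufc2 at -0.17, Sdhc at -0.15 and Sdhd at -0.13. In the hippocampus Cox6a1 was at 0.18 and Atp5d at 0.12, and Ndufs5 at -0.16, Sdhc at -0.13 and Uqcrc2 at -0.12. In the bulb Ndufs8 was at -0.14, Ndufv2 and the Rieske protein gene Uqcrfs1 at -0.13, and Cox7c and Atp5g3 at -0.12. On average over regions Atp5l was at 0.24 (SE 0.098, edgeR adjusted p = 0.255), Sdhc at -0.09, Ndufc1 and Sdhd at -0.08 and Uqcrc2 at -0.07.

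**Figure D5:**
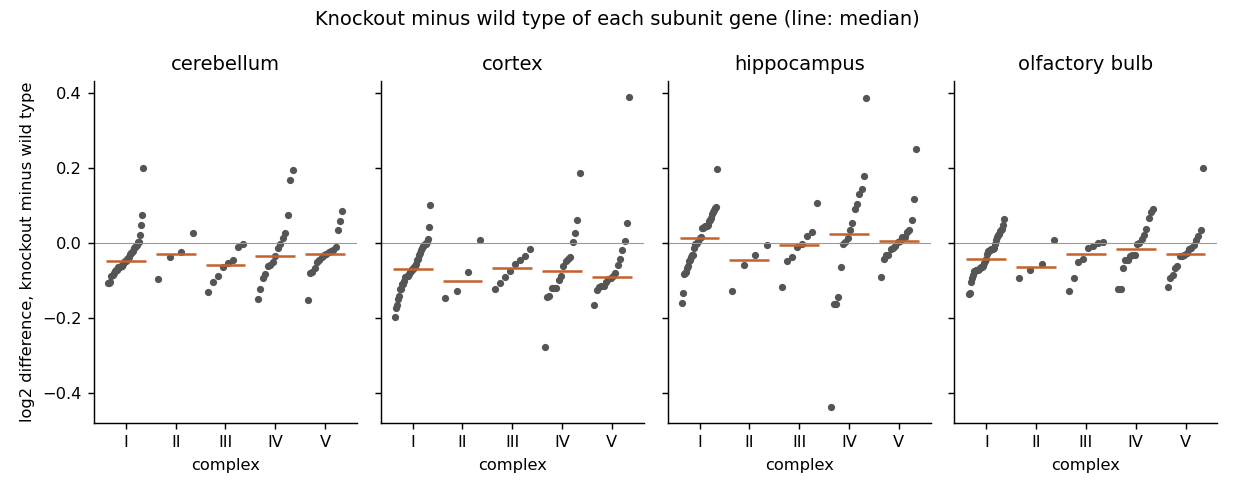
Log2 difference, knockout minus wild type, of each member by complex in the 4 regions, with 1 point per gene and a line at the median of the complex. Member medians are -0.04 in the cerebellum, -0.07 in the cortex, 0.01 in the hippocampus and -0.03 in the bulb, and no point passed the test.

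Among the biogenesis regulators 1 of 19 was called on average over the regions, where 2.68% of all genes were. That fit treated the 24 libraries as independent, though equally numbered libraries correlated in most region pairs. No result that allows for this is given for the gene. Pprc1, a coactivator of the PGC-1 family, was higher in the knockout (log2 0.36, SE 0.056, edgeR adjusted p = 0.000803), with 0.38, 0.37, 0.29 and 0.38 in cerebellum, cortex, hippocampus and bulb, none of which passed alone. Of 45 assembly factors, 18 citric acid cycle genes and 17 glycolysis genes, 0 passed on average over the regions.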

How the data were processed

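Gene counts of 24 poly(A) RNA-seq libraries (TRIzol RNA, stranded TruSeq mRNA kit, per the labels' protocols) were used as deposited by the authors, as whole-number counts per Ensembl gene. Per the submitters' processing notes, tools were bcl2fastq 2.17.1.14, STAR 2.5.1b and HTSeq 0.6.1p1, and the build was mm9. The strand setting of the counting is not given in the sources used here. The 5 summary lines of each table stayed out of library sizes. Reads in no feature were 8.22% to 16.8% and not unique 10.3% to 13.5%. Symbols, lengths and copies (at least 95% identity over 50% of a transcript) came from GENCODE M21 by gene ID, which gave a symbol for 32897 of 37621 features.

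Each comparison was fitted to all genes with edgeR 4.0.16 (quasi-likelihood, filterByExpr, TMM) in R 4.3.3, with Benjamini-Hochberg adjustment over all genes tested and calls at an adjusted p under 0.05. Knockout comparisons used the libraries of 1 region, the mean over regions all 24, and region comparisons the 12 libraries of 1 genotype. CPM are TMM-scaled unless stated. Alternatives were DESeq2 1.42.0, other filters and scaling, 1 fit to 24 libraries, a replicate block and each library left out. Libraries numbered 2, those over 1000 CPM of choroid plexus markers, and the best supported transcript lengths were added after the data were seen. The fitting steps were tested on simulated data. Each simulation changed 100 genes at each fold, all of them well counted. For knockout minus wild type in cortex, 86% of 2-fold and 31% of 1.5-fold changes were recovered. There 22 of 139 calls were false, a share above the threshold of 0.05. For wild-type cerebellum minus cortex, 71% and 21% were recovered, and 6 of 98 calls were false. In the real data 53.7% of all genes were called in that comparison. These rates therefore do not carry over to it, or to members with few reads. Named genes are the highest and lowest per length in each complex, up to 5 called members per direction with libraries that do not overlap, the 5 smallest p in knockout comparisons and the alternative forms. Others were chosen after their values were seen. One member is counted but not reported by name here. Members and lists were chosen with earlier results of these data known.

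Equal replicate numbers come from the labels. Deviations of equally numbered libraries correlated at over 0.1 in every pair for knockout against wild type in cerebellum, hippocampus and bulb (lowest 0.322), but not in cortex (lowest -0.088). They also did for region pairs other than wild-type cerebellum with hippocampus and knockout cortex with hippocampus or bulb. Over the 24 replicate pairs within groups, chi-square divided by its degrees of freedom was 6.61 to 56.1, above sampling noise.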

Additional observations from a re-analysis of the deposited data

How the results depend on the processing

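Counts of members called moved by over 1.5 times as follows. Without libraries over 1000 CPM of choroid plexus markers, knockout calls were 13 for cerebellum minus bulb. Of all genes, 8378 were called there, and 8835 with all libraries. The wild-type fit kept 1 library each of cerebellum and hippocampus, so its counts, which moved as well, are not given. Fewer libraries entered these fits. Without the libraries numbered 2, wild-type calls were 9 for cortex minus hippocampus and 34 for cortex minus bulb, and knockout calls 3 for cortex minus hippocampus. Of all genes, 2847, 7962 and 4493 were called there, and 2257, 7405 and 3538 in the main fits. DESeq2 gave 1 in wild type (2713 of all genes) and 4 in knockout (4080 of all genes) for cortex minus hippocampus. One fit to all 24 libraries gave 24 for cortex minus bulb and 14 for hippocampus minus bulb in wild type. Calls over all genes are not given for that fit, so its counts say nothing particular to the members. Library totals gave 16 in wild type and 25 in knockout for hippocampus minus bulb. Of all genes, 7367 and 8227 were called there, and 6840 and 7874 in the main fits. The replicate block gave 23 for wild-type cortex minus bulb, 14 for wild-type hippocampus minus bulb and 3 for knockout cortex minus hippocampus. Of all genes it called 8948, 8299 and 4323 there. It moved no other count of members by over 1.5 times. The causes were not tested.

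With 1 library left out, wild-type calls ran from 11 to 26 for cerebellum minus cortex, 8 to 27 for cerebellum minus hippocampus, 8 to 20 for cerebellum minus bulb, 0 to 11 for cortex minus hippocampus, 8 to 33 for cortex minus bulb and 4 to 17 for hippocampus minus bulb. In the knockout they ran from 18 to 27, 19 to 29, 12 to 21, 0 to 3, 12 to 22 and 12 to 18 in the same order. Calls over all genes in these runs are not given here, so the ranges say nothing particular to the members. Members called between knockout and wild type stayed at 0 in each alternative run. Of 40 named region calls, 14 held under all 20 alternatives, and 38 were also called in the knockout. Neither share was computed over all genes. Atp5l, knockout minus wild type in cortex, turned to -0.020 without the libraries numbered 2. Genes under about 2 CPM, Cox6a2 in the cerebellum among them, rest on few reads.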
